A study of Rattus norvegicus with 8 samples.

Results

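Interferon-stimulated genes are the genes that cells switch on when they receive interferon, and 37 of them were followed here in cirrhotic rat liver. They were taken by gene symbol from a fixed list, and 32 of the 37 had a probe set that the platform annotation assigns to that symbol alone, 38 probe sets in all, out of 14217 genes so represented on the array. Gbp5, Oas2, Oasl2, Rigi and Xaf1 had none under this rule. Where a gene had several probe sets, the one with the highest mean over the 8 arrays stands for it.

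All 8 livers came from male Wistar rats made cirrhotic with inhaled carbon tetrachloride (CCl4), a hepatotoxin, and phenobarbital (0.3 g/L), which induces hepatic drug metabolism, was in the drinking water of every animal. By the sample labels 4 rats were given vehicle, although the series description calls them non-treated, and 4 were given an antiangiogenic treatment, and the sources used here name no agent, dose, duration or age. One Affymetrix Rat2302 array measured each liver, and levels are deposited log2 values, so that a difference of 1 is a 2-fold change. Differences below are treated minus vehicle, values after ± are SDs over 4 arrays, 4 values in a row are those of replicates 1 to 4, and the probe set of a gene stands in parentheses.

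Interferons act through receptor pairs on the cell surface. Type I interferons act on genes through the interferon-stimulated response element (ISRE), which a complex that includes STAT2 and IRF9 binds, while interferon gamma acts through the gamma-activated sequence (GAS). The induced proteins bind viral RNA, block viral entry and replication, tag other proteins with ISG15, and feed back on the pathway. In liver, hepatocytes, Kupffer cells, endothelium and infiltrating leukocytes can all respond.

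The livers passed a check of their tissue, since 9 measured hepatocyte markers averaged 13.66 to 13.90 on every array, against a 90th percentile of 9.04 to 9.16. The median of all probe sets lay between 5.16 and 5.30. Vehicle 4 and treated 3 were nearly identical (r = 0.996 over dependent probe sets, with a median absolute deviation of their difference, scaled to an SD, of 0.166 against 0.251 to 0.404 in the other 27 pairs). A near-copy of 1 array thus stands in each group under opposite labels, n = 4 counts arrays, and results are given with and without this pair. No label names a batch. By the levels of the BioB and BioC spike-in controls the arrays were put into 3 groups, called spike-in groups here, vehicle 1 with treated 1, vehicle 2 and 3 with treated 2 and 4, and the near-identical pair. The 3′ to 5′ log2 ratio of Gapdh, a measure of RNA integrity, was 0.301 ± 0.113 for vehicle arrays and 0.288 ± 0.114 for treated ones (two-sided exact permutation p = 0.914, n = 4 per group, smallest possible 0.0286).

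Most interferon-stimulated genes were lower in treated livers, but none passed the test over all probe sets. Of the 32, 24 had a lower mean in treated livers, with differences from −1.66 to −0.04, and 8 had a higher one, from 0.02 to 0.77. The median difference was −0.23, against 0.01 over all 14217 genes, of which 48.4% were lower. Without the near-identical pair it was −0.33, and 25 members were lower. In bulk tissue fewer responding cells and less RNA per cell cannot be told apart.

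Tested with limma over all 31042 probe sets and adjusted by Benjamini-Hochberg, 0 had an adjusted p under 0.05 (0%, and 0% of genes). The smallest adjusted p was 0.979, among the members too. At an unadjusted p under 0.05 it counted 1220 probe sets (3.93%). The same level was reached by 6 members, Mx1, Mx2, Gbp4, Oas1a, Oasl and Irf7, all of them lower in treated livers. That is 18.8% of the 32, against 4.75% of all genes, of which 2.80% were lower and 1.95% higher. The count was 3 without vehicle 1, without vehicle 3 or without treated 1, it was 2 without treated 2, and it was 9 without the near-identical pair. In these settings, in the same order, the count over all probe sets was 650, 626, 538, 872 and 2025. It thus moved as well from the 1220 of the main fit. Irf7 was the 1 member whose groups did not overlap at its representative probe set, against 0.626% of genes lower and 0.992% higher without overlap. Rsad2 and Gbp4 differed by at least 2-fold, both lower, against 1.32% of genes that much lower and 0.359% that much higher. Without the near-identical pair 9 members were that much lower and 1 higher. The shares of all genes that much lower or higher were not counted without this pair, and the shares above include it. Neither of the 2 reached 2-fold without vehicle 3 (Rsad2 −0.78, Gbp4 −0.73), nor did Gbp4 without treated 1 (−0.78).

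**Figure D1:**
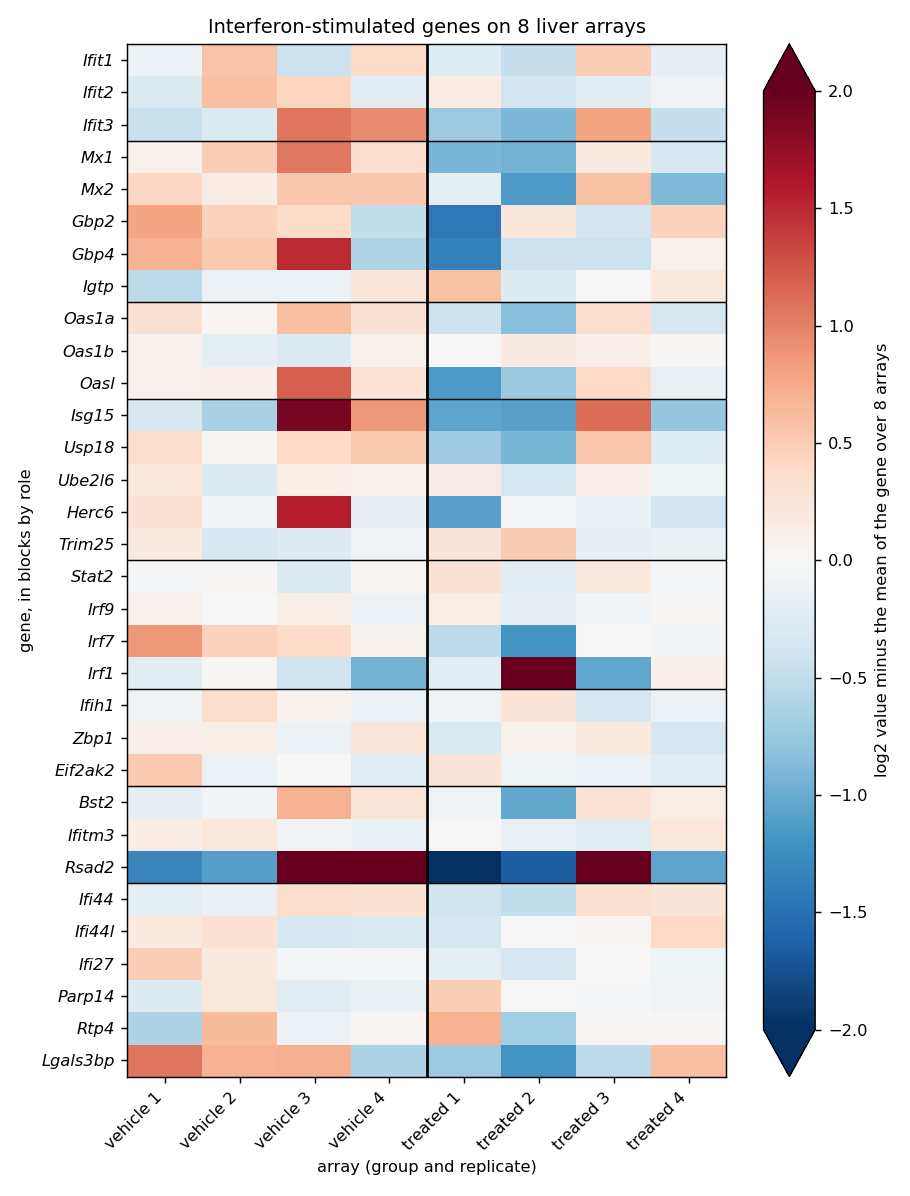
Log2 values of the 32 measured interferon-stimulated genes on the 8 arrays, each gene centred on its own mean, with genes in rows by role and arrays in columns (color scale from −2 to 2; larger deviations take the end colors). Rsad2, Isg15 and Ifit3 are high on vehicle 3, vehicle 4 and treated 3, and Irf1 is high on treated 2.

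**Figure D2:**
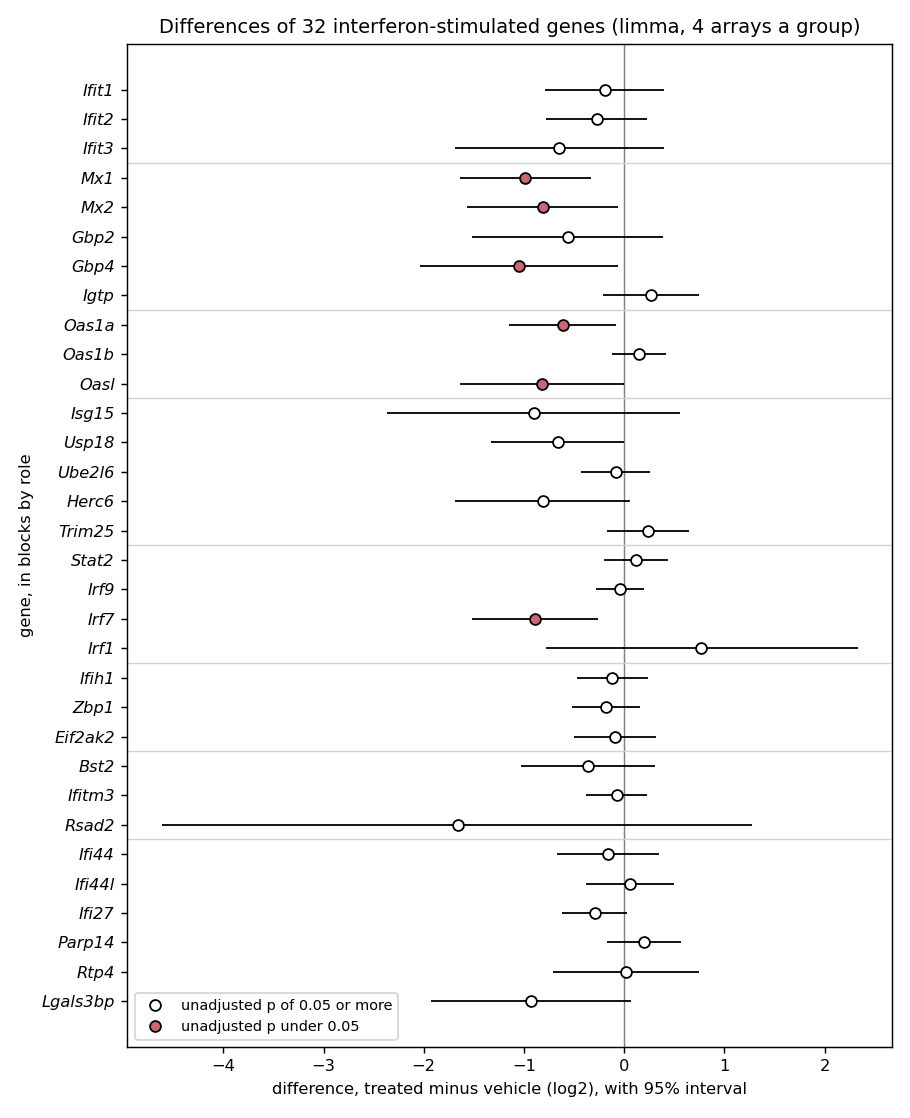
Difference between treated and vehicle livers for each member (log2, points) with its 95% interval from limma (bars), 4 arrays per group. Filled points mark the 6 members with an unadjusted p under 0.05, all to the left of 0, and the interval of Rsad2 (−4.61 to 1.28) is the widest.

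Many of the members have the letters of an interferon response element in their promoters, and a few are printed to show them for genes with lower and with higher means in treated livers. RefSeq promoter windows (rat assembly GRCr8, 250 bases before to 50 after the annotated start) were matched by symbol for 25 of the 32 measured members. The ISRE was searched as GAAA, any 2 bases and GAAA again, and the GAS as TTCNNNGAA, on both strands. An ISRE pattern stood in 17 of the 25 windows (68%), against 3.92% of all 33469 windows, and a GAS pattern in 9 (36%), against 8.87%. In 1 member, Bst2, the patterns overlapped. Of 19 ISRE stretches before the start, 15 lay wholly within 100 bases of it. Capitals mark the pattern, or overlapping copies of it, and positions count back from the start, −1 being the base before it. The stretches below run 5′ to 3′ on the strand of the gene, and a pattern on the other strand reads as its reverse complement.
Rsad2 ISRE, other strand, −147 to −138 (chr6:48788233-48788292, minus strand): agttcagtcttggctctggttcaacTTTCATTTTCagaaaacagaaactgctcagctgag
Ifit3 ISRE, other strand, −44 to −35 (chr1:241527257-241527316, plus strand): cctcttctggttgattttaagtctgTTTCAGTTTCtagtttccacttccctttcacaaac
Irf7 ISRE, other strand, −69 to −60 (chr1:205800058-205800117, minus strand): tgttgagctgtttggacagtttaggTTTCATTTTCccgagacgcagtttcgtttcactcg
Oas1a ISRE, 2 overlapping copies, −41 to −26 (chr12:41330400-41330465, plus strand): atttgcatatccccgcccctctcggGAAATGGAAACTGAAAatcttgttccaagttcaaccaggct
Oas1b ISRE, 2 overlapping copies, −59 to −44 (chr12:41395871-41395936, minus strand): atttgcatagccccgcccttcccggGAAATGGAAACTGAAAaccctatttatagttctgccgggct
Parp14 ISRE, −76 to −67 (chr11:78408033-78408092, plus strand): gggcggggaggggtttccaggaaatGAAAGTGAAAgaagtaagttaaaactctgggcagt
Igtp ISRE, −103 to −94 (chr10:42874919-42874978, plus strand): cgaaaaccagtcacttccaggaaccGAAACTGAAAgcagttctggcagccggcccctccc
Irf1 GAS, −142 to −134 (chr10:38417768-38417826, plus strand): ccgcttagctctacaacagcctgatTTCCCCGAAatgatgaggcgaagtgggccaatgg

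The 17 members with an ISRE pattern had a median difference of −0.29 with 13 lower, and the 8 without one had −0.06 with 5 lower. The 7 measured members without a window had −0.27 with 6 lower. Mx1 and Oasl, which were among the 6 lower members, had neither pattern in their windows. Of the members with both patterns, Parp14, Igtp, Oas1b and Ifi44l had higher means in treated livers, and Bst2, Ifitm3 and Oas1a had lower ones. A match to these letters is a description of the sequence and not a binding site.

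**Figure D3:**
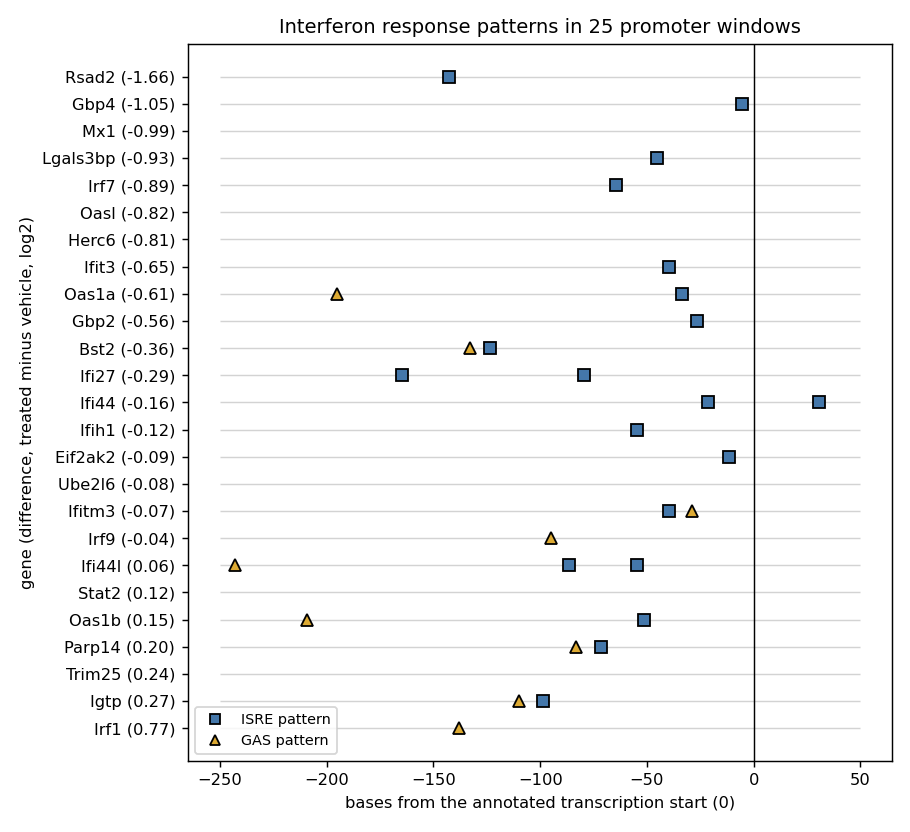
Position of ISRE (squares) and GAS (triangles) patterns in the 25 promoter windows, in bases from the annotated transcription start, with genes ordered by their treated minus vehicle difference (log2, in parentheses). Patterns are found at both ends of the order, and most squares lie within 100 bases before the start.

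The transcription factors of the pathway were split, with 2 of 4 lower. Irf7, the factor that amplifies type I interferon production (1383564_at), stood at 8.34, 7.93, 7.86 and 7.55 in vehicle livers and at 6.95, 6.28, 7.48 and 7.42 in treated livers. Every treated array was below every vehicle array, but the near-identical vehicle 4 and treated 3 were its closest values. The group means were 7.92 ± 0.32 and 7.03 ± 0.56, a level 1.85-fold lower (difference −0.89, SE 0.28, 95% interval −1.52 to −0.26, limma, adjusted p = 0.979). It was lower by a similar amount in the first (−1.39) and second (−1.05) spike-in groups and hardly differed in the third (−0.07).

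Irf1, which interferon gamma and inflammatory cytokines induce (1368073_at), stood at 7.84, 8.08, 7.65 and 7.11 on the vehicle arrays and at 7.83, 10.75, 7.02 and 8.16 on the treated ones. Treated 2 alone carried its higher mean. Its difference was 0.77 (95% interval −0.78 to 2.33), and −0.00012 without treated 2. Stat2, a subunit of the type I response complex (1389571_at), read 8.56, 8.62, 8.32 and 8.65 in vehicle and 8.88, 8.38, 8.81 and 8.56 in treated livers. The difference was 0.12, with an interval of −0.20 to 0.44, and its other probe set gave 0.20. Irf9, the DNA-binding subunit of the complex (1374627_at), had means of 7.54 ± 0.10 and 7.50 ± 0.11. Its difference was −0.04, but 0.01 with arrays centred on their medians and 0.00055 without treated 2. The second probe set of Irf9 gave −0.11 (interval −0.39 to 0.18). The complex as a whole was not measured, and neither of these subunits differed beyond the spread between arrays.

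Among the GTPases, 4 of 5 measured were lower and 3 of these had an unadjusted p under 0.05, against 48.4% and 2.80% of all genes. Mx1, a dynamin-like GTPase that traps viral nucleoproteins (1371015_at), stood at 4.81, 5.21, 5.77 and 5.06 in vehicle and at 3.81, 3.78, 4.92 and 4.40 in treated livers. Only treated 3, the near-copy of vehicle 4, reached the vehicle range. The means were 5.21 ± 0.41 and 4.23 ± 0.54, or 1.98-fold lower (difference −0.99, SE 0.29, 95% interval −1.64 to −0.33, limma, adjusted p = 0.979). Without the near-identical pair the difference was −1.27, and leaving out single arrays moved it between −1.22 and −0.80. Mx1 was dim on treated 1 and 2, where it lay just below the lower quartiles of those arrays (3.84 and 3.83). Its mean over the 8 arrays was 4.72, so the filter on a mean of at least 6 left it out.

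Mx2, its paralog (1387283_at), stood at 6.25, 5.99, 6.38 and 6.38 in vehicle and at 5.64, 4.71, 6.43 and 4.96 in treated livers (difference −0.81). Here treated 3 was the highest of all 8 arrays and the other treated arrays were the lowest. A dimmer second probe set of Mx2 (1369202_at) read 4.91, 3, 6.15 and 2.73 in vehicle and 3, 2.80, 3.03 and 5.42 in treated livers. It gave −0.63 (interval −2.53 to 1.26), with most values below the lower quartile of the arrays (3.74 to 3.91). This probe set did not follow the first, and vehicle 4 was its lowest array. With all probe sets of a gene averaged, Mx2 differed by −0.72 (limma, unadjusted p = 0.133). Gbp4, a guanylate-binding protein of the interferon gamma response (1385051_at), read 5.99, 5.82, 6.78 and 4.69 in vehicle and 3.94, 4.87, 4.86 and 5.38 in treated livers (difference −1.05, 95% interval −2.04 to −0.06). For this gene vehicle 4 lay among the treated arrays, so that the near-identical pair was low, where for Mx2 it was high.

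Gbp2, a second guanylate-binding protein, which attacks vacuoles that hold pathogens (1368332_at), read 7.58, 7.25, 7.16 and 6.29 in vehicle and 5.36, 7.02, 6.41 and 7.25 in treated livers. Treated 1 was below all other arrays and treated 2, 3 and 4 were within the vehicle range (difference −0.56, interval −1.52 to 0.39, and −0.18 without treated 1). Igtp, an immunity-related GTPase (1397304_at), ran the other way, with 7.77, 8.17, 8.17 and 8.53 in vehicle and 8.88, 8.03, 8.29 and 8.51 in treated livers. Its difference was 0.27 (interval −0.21 to 0.75). At its dimmer second probe set (1396163_at) every treated array was above every vehicle array, and vehicle livers read 5.81, 6.20, 6.15 and 6.20 and treated livers 6.69, 6.24, 6.21 and 6.38 (difference 0.29, interval −0.04 to 0.62). The groups were barely apart at this second probe set, with 6.21 on treated 3 against 6.20 on vehicle 2 and vehicle 4. Treated 3 and vehicle 4 are the near-identical arrays. Without treated 1 the first probe set gave 0.12. The groups overlapped for Gbp2 and for the first probe set of Igtp.

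The oligoadenylate synthetases make short oligoadenylates from ATP that activate RNase L, which degrades RNA. Oas1a (1371152_a_at) stood at 6.38, 6.11, 6.67 and 6.35 in vehicle and at 5.66, 5.24, 6.41 and 5.73 in treated livers, and treated 3 was again the only treated array within the vehicle range. The difference was −0.61 (SE 0.24, 95% interval −1.15 to −0.08), and −0.84 without the near-identical pair. Oasl, a related protein of the family (1377497_at), read 7.03, 7.04, 8.13 and 7.21 in vehicle and 5.80, 6.20, 7.34 and 6.79 in treated livers. Vehicle 3 was the highest array and 3 of the 4 treated arrays lay below every vehicle array (difference −0.82, 95% interval −1.64 to 0.00). Oas1b (1388056_at) averaged 3.60 ± 0.19 and 3.75 ± 0.08, and was the only member no brighter than the lower quartile of the arrays (3.74 to 3.91), although the printed stretch of its promoter holds the same 2 copies of the ISRE pattern as that of Oas1a. The rat carries several closely related Oas1 genes, and cross-hybridization between their probe sets was not tested.

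The IFIT proteins bind foreign RNA and block its translation, and all 3 had lower means in treated livers with overlapping groups. Ifit2 (1384180_at) read 7.93, 8.82, 8.65 and 8.01 in vehicle and 8.36, 7.83, 7.99 and 8.14 in treated livers (difference −0.27, and −0.28 at its second probe set). Ifit1 (1369836_at) read 5.14, 5.83, 4.84 and 5.64, and 5.02, 4.80, 5.75 and 5.10 (difference −0.19). Neither gene separated the groups, and leaving out single arrays moved Ifit2 between −0.41 and −0.11 and Ifit1 between −0.39 and −0.04. Ifit3 (1376908_at) had 2 levels rather than 2 groups. It stood at 4.70 and 4.85 on vehicle 1 and 2, at 6.21 and 6.09 on vehicle 3 and 4, at 5.93 on treated 3, and at 4.41, 4.24 and 4.68 on treated 1, 2 and 4.

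Rsad2 and Isg15 shared this pattern, which was singled out after the values were seen. Rsad2 encodes viperin, an enzyme that makes an antiviral nucleotide (1370913_at), and read 6.74, 6.96, 11.54 and 10.32 in vehicle and 5.32, 6.41, 10.16 and 7.01 in treated livers. The high arrays were vehicle 3, vehicle 4 and treated 3, far above the other 5. Over the 8 arrays its SD was 2.26, which ranked 13 among the 14217 genes. Isg15, a ubiquitin-like protein joined to other proteins (1382314_at), read 7.24, 6.91, 9.46 and 8.43, and 6.50, 6.47, 8.67 and 6.79. Rsad2 and Isg15 correlated at r = 0.97 over the 8 arrays and over the 6 without the near-identical pair, and Rsad2 and Ifit3 at 0.97 over either. These correlations describe a few livers that share a normalization, and with the pair left out the high level rests on vehicle 3 alone.

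The spread of these genes within the groups was larger than the difference between them. Rsad2 differed by −1.66 (95% interval −4.61 to 1.28), Isg15 by −0.90 (−2.37 to 0.56) and Ifit3 by −0.65 (−1.69 to 0.40). Without vehicle 3 these were −0.78, −0.42 and −0.40, and without treated 3 they were −2.64, −1.42 and −1.02. Rsad2 also gave −1.03 without treated 1, and Ifit3 −0.43 without vehicle 4.

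**Figure D4:**
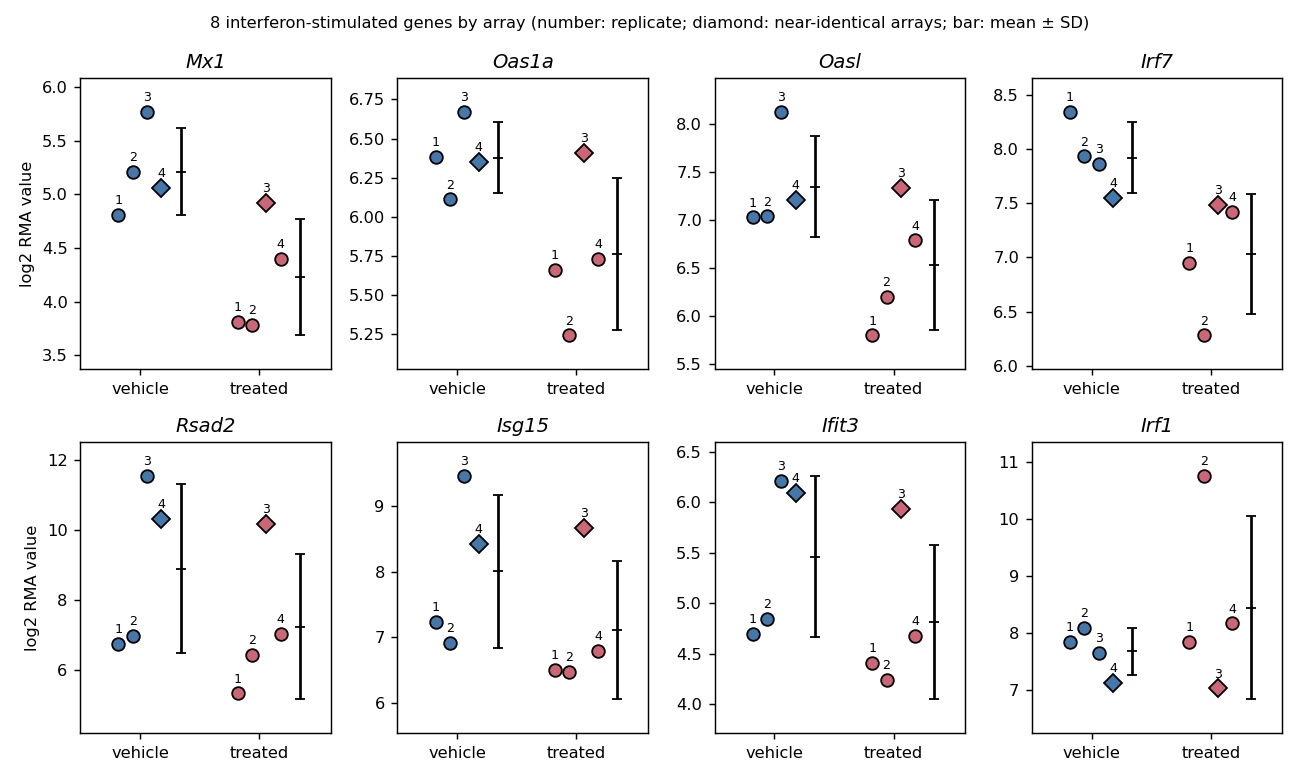
Log2 values of 8 members on each array (points, numbered by replicate, with the near-identical vehicle 4 and treated 3 as diamonds), with mean ± SD of each group of 4 arrays; each panel has its own vertical scale. Mx1, Oas1a and Oasl are low on treated 1, 2 and 4, Rsad2, Isg15 and Ifit3 are high on vehicle 3, vehicle 4 and treated 3 alone, and Irf1 is high on treated 2.

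In the ISG15 conjugation system 4 of 5 genes were lower and none had an unadjusted p under 0.05. Usp18, which removes ISG15 and dampens the type I receptor (1389034_at), read 7.26, 6.94, 7.30 and 7.43 in vehicle and 6.18, 5.99, 7.46 and 6.66 in treated livers. It followed Oas1a across the arrays (r = 0.95 over 8), with 3 treated arrays below every vehicle array and treated 3 above them (difference −0.66, 95% interval −1.33 to 0.00). Herc6, the main ligase for ISG15 in rodents (1382902_at), read 6.09, 5.75, 7.37 and 5.64, and 4.72, 5.77, 5.68 and 5.43 (difference −0.81, and −0.43 without vehicle 3). Vehicle 3 was its highest and treated 1 its lowest array, as for Gbp4.

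Ube2l6, the conjugating enzyme (1373037_at), read 9.03, 8.54, 8.95 and 8.89 in vehicle and 8.98, 8.48, 8.91 and 8.72 in treated livers. The difference was −0.08, and 0.01 without treated 2. Trim25, a ubiquitin ligase that activates the RNA sensor RIG-I (1377726_at), read 8.98, 8.48, 8.55 and 8.74, and 9.06, 9.32, 8.64 and 8.68 (difference 0.24). Its highest array was treated 2, as for Irf1, with which it correlated at r = 0.69. Neither of these genes parted the groups.

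The nucleic acid sensors differed little between the groups. Ifih1, the sensor MDA5 (1394352_at), read 6.38, 6.80, 6.52 and 6.32 in vehicle and 6.38, 6.70, 6.12 and 6.33 in treated livers (difference −0.12, interval −0.47 to 0.24). Eif2ak2, the kinase PKR that halts translation (1387242_at), read 7.36, 6.72, 6.85 and 6.62, and 7.10, 6.76, 6.72 and 6.61. Its difference was −0.09, with the opposite sign (0.07) once vehicle 1, the highest array, was left out. Zbp1, a sensor of Z-form nucleic acid that triggers cell death (1371070_at), averaged 4.31 ± 0.15 and 4.12 ± 0.26.

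The membrane proteins that restrict viruses were bright on every array and overlapped between the groups. Bst2, or tetherin, which holds budding virions at the cell surface (1390738_at), read 11, 11.10, 11.86 and 11.40 in vehicle and 11.09, 10.13, 11.43 and 11.27 in treated livers. Only treated 2 was below the vehicle range (difference −0.36, and −0.08 without treated 2). Ifitm3, which blocks fusion of viruses in endosomes (1387995_a_at), read 12.47, 12.52, 12.24 and 12.18, and 12.30, 12.17, 12.11 and 12.53 (difference −0.07, interval −0.38 to 0.23).

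Of the 6 other induced genes measured, 3 were lower and 3 higher. Ifi27 (1387770_at) read 12.93, 12.62, 12.40 and 12.42 in vehicle and 12.26, 12.13, 12.44 and 12.36 in treated livers, with vehicle 1 and 2 above all other arrays (difference −0.29, interval −0.62 to 0.03). Lgals3bp, a secreted glycoprotein that binds galectin-3 (1387946_at), read 9.94, 9.57, 9.58 and 8.25, and 8.15, 7.67, 8.35 and 9.47. Treated 4 was close to vehicle 1 to 3, and vehicle 4 lay among the other treated arrays (difference −0.93, interval −1.93 to 0.07). Over the 8 arrays Irf7 correlated with Ifi27 at r = 0.89 and with Lgals3bp at 0.86.

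Rtp4, a chaperone of membrane receptors (1379285_at), read 8.42, 9.66, 8.91 and 9.09 in vehicle and 9.72, 8.33, 9.06 and 9.05 in treated livers, so that each group held both a high and a low array. Its difference of 0.02 became negative when vehicle 1 (−0.18), vehicle 3 (−0.02) or treated 1 (−0.21) was left out, and with array weights (−0.05). Parp14, an ADP-ribosyltransferase (1372034_at), averaged 8.02 ± 0.22 and 8.22 ± 0.27, with a difference of 0.20 and of 0.23 at its second probe set. Ifi44 (1381014_at) averaged 6.63 ± 0.29 and 6.47 ± 0.42, and Ifi44l (1379748_at) 7.07 ± 0.31 and 7.14 ± 0.29. The difference of Ifi44l, 0.06, was −0.02 without the near-identical pair.

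The 32 genes did not vary as 1 unit. The median correlation over their 496 pairs was 0.09 across the 8 arrays, and 56.9% of pairs were above 0. Mx1, Oasl, Oas1a, Usp18 and Isg15 each followed the unscaled mean of the other members closely, with r of 0.98, 0.98, 0.93, 0.87 and 0.82. By contrast, 11 members were below 0, down to −0.68 for Irf1 and −0.79 for Trim25. With every gene scaled to the same SD, Mx1, Oasl, Oas1a and Usp18 had 0.91, 0.80, 0.94 and 0.86. Isg15 then had 0.63, while Irf7 had 0.92 and Mx2 0.82. These values describe 8 arrays, 2 of them near-copies. In variability the family stood high, with 12 of 32 members (37.5%) in the top 10% of all genes by SD over the 8 arrays. This was not particular to it, since macrophage markers such as Csf1r and Adgre1 and stellate markers such as Col1a1 and Pdgfrb were there too. Other markers of these lists, among them Cd5l and Lrat, were not. Treated 2 was the lowest array for 16 members and vehicle 3 the highest for 11. The mean over the members was 7.48, 7.49, 7.84 and 7.52 in vehicle livers and 7.03, 7.04, 7.53 and 7.30 in treated ones, so that treated 1, 2 and 4 lay below every vehicle array and treated 3 did not.

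By spike-in group, the members were mostly lower in the first and the second, while the third is the near-identical pair. In the first group 23 of 32 were lower with a median of −0.28, from Gbp2 at −2.22 to Rtp4 at 1.30. In the second 26 were lower with a median of −0.33, from Rsad2 at −2.54 to Irf1 at 1.59. In the third 12 were lower with a median of 0.03, and all differences lay between −0.24 and 0.33. The share of all genes lower within each spike-in group was not counted, and the difference between these groups was not tested.

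**Figure D5:**
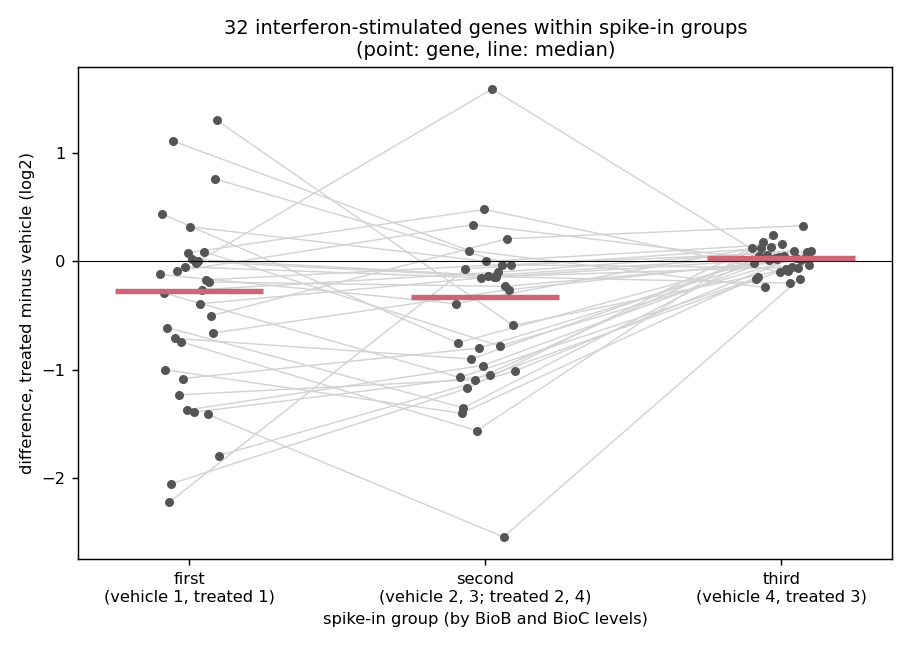
Treated minus vehicle difference (log2) of the 32 members within each of the 3 spike-in groups (points, joined by gene, with the median as a thick line); the first and the third hold 1 array of each kind and the second 2. Medians are −0.28, −0.33 and 0.03.

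Upstream of these genes, the interferons themselves were at the bottom of the intensity range. Ifng (1370790_at) read 2.73 to 3.0 in vehicle and 2.83 to 3.03 in treated livers, and Ifnb1 (1369889_at) 3.58 to 3.86 and 3.53 to 4.24, near or below the lower quartile of the arrays, so that no level of either was read from them. Of 17 measured ligands, receptors and signalling genes, 9 were lower and 1 had an unadjusted p under 0.05, with a median difference of −0.06. These shares (52.9% and 5.88%) are near those of all genes (48.4% and 4.75%). The 1 gene was Ifngr1, the ligand-binding chain of the interferon gamma receptor (1369956_at). It stood at 10.28, 9.85, 9.90 and 9.11 in vehicle and at 8.83, 9.30, 9.02 and 9.52 in treated livers, with vehicle 4 among the treated arrays (difference −0.62, 95% interval −1.18 to −0.05).

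The chains of the type I receptor, Ifnar1 (1379298_at) and Ifnar2 (1390154_at), differed by 0.10 (interval −0.26 to 0.46) and 0.22 (−0.12 to 0.57). Socs3, a feedback inhibitor of cytokine receptors (1369584_at), was chosen after its values were seen. It read 5.19, 5.43, 4.80 and 5.01 in vehicle and 4.91, 7.06, 4.81 and 5.15 in treated livers, and was high on treated 2, the array on which Irf1 was high. The difference was 0.37, and −0.15 when that array was left out.

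Among 16 measured genes that sense nucleic acids upstream of interferon, 12 were lower and 2 had an unadjusted p under 0.05, with a median of −0.14 (75.0% and 12.5%, against 48.4% and 4.75% of all genes). Sting1, the adaptor for cytosolic DNA (1390226_at), read 6.28, 5.48, 6.29 and 5.34 in vehicle and 4.73, 4.87, 5.07 and 5.49 in treated livers, where treated 4 reached the vehicle range (difference −0.80, 95% interval −1.40 to −0.21). Tlr7, an endosomal receptor for single-stranded RNA (1382531_at), read 5.29, 4.46, 4.92 and 3.65, and 3.37, 4.25, 3.57 and 3.99 (difference −0.78). Irf8, a factor of myeloid cells chosen after its values were seen (1372097_at), read 8.38, 8.47, 8.49 and 6.78, and 6.34, 7.66, 6.86 and 7.89 (difference −0.84). For Tlr7 and Irf8 vehicle 4 was far below the other vehicle arrays. None of the 33 genes in both lists passed the adjusted threshold.

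Markers of other cell types were mostly lower in treated livers too, but none passed the adjusted threshold in limma. The mean of every list overlapped between the groups. Without the near-identical pair the endothelial, pan-leukocyte and red blood cell means did not overlap, and the other lists still did. At an unadjusted p under 0.05, all lower, were 44.4% of endothelial, 50% of red blood cell, 18.2% of pan-leukocyte and 20% of stellate markers. Of plasmacytoid markers it was 1 of 2, of the other lists none, and of all genes 2.80% lower. The 9 measured endothelial markers of 10 averaged 7.11 to 7.96 on the vehicle and 6.93 to 7.13 on the treated arrays, and all 9 were lower. For 10 of 12 macrophage and monocyte markers the ranges were 8.29 to 8.96 and 7.64 to 8.75, with 7 lower, and the minimum was on treated 1. For 11 of 12 pan-leukocyte and lymphoid markers they were 4.61 to 5.17 and 4.41 to 4.91, with 8 lower and 3 of the 11 dim in both groups. Stellate cell and myofibroblast markers ran from 7.99 to 8.97 and from 7.41 to 8.49 with 9 of 10 lower, bile duct markers (6 of 7 measured) from 5.87 to 6.94 and from 5.77 to 6.96 with 5 lower, and red blood cell markers (4 of 8) from 5.77 to 6.51 and from 5.46 to 5.90 with 3 lower. Of 7 markers of plasmacytoid dendritic cells, a main source of type I interferon, 2 were measured, averaging 6.54 to 8.58 and 5.71 to 7.62 and both lower, too few to judge these cells. Of the 9 hepatocyte markers 6 were lower, with a median of −0.03. The part of these cells in the differences above was not tested.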

How the data were processed

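The authors deposited log2 values for 8 arrays (31099 probe sets). Per the submitters' processing notes, affy and RMA (background correction, quantile normalization and probe set summary) were used, with no version stated. RMA understates fold changes of dim genes. No column was unused (0). After leaving out 57 control probe sets, 31042 were tested with limma 3.58.1 in R 4.3.3 (lmFit and eBayes, no covariates), treated minus vehicle by sample title, with Benjamini-Hochberg adjustment over all of them. The procedure was tested on simulated data. Names came from the platform annotation, with 20826 probe sets of 1 symbol, 436 of several and 9780 with none listed.

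Values are given array by array for the 2 members of each role with the highest mean, for those with an unadjusted p under 0.05 or no overlap, and for others chosen after seeing the data. The members, lists and alternatives were chosen with earlier results of these data known. The series description speaks of 4 rats per group, and their number limits the precision. Equal replicate numbers did not pair the arrays (correlations of deviations −0.114, 0.041, −0.124 and −0.62 for numbers 1 to 4). Spike-in groups are not batches named by a label and were read from the levels of the BioB and BioC spike-in controls. Promoter windows are from RefSeq (GRCr8).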

Additional observations from a re-analysis of the deposited data

Results flagged for a closer look

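In groups of 4 arrays, 5 values stood far from the other 3 of their group (82 groups checked, 64 of them of the members; chance gives about 1 in 20). Isg15 was 8.67 on treated 3, against 6.47 to 6.79 on the other treated arrays. Oasl was 8.13 on vehicle 3, against 7.03 to 7.21. Parp14 was 8.61 on treated 1, against 8.05 to 8.13. Socs3 was 7.06 on treated 2, against 4.81 to 5.15. Irf8 was 6.78 on vehicle 4, against 8.38 to 8.49. Treated 3 and vehicle 4 are the near-identical arrays, and on the other of the pair Isg15 was 8.43 and Irf8 was 6.86. The rate that chance gives does not apply to Socs3 and Irf8, which were chosen after their values were seen, and the members gave the other 3. What sets these arrays apart was not tested.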

How the results depend on the processing

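The median difference of the members stayed negative under every alternative, between −0.33 (without the near-identical pair) and −0.14 (24 members with a mean of at least 6), and −0.31 to −0.20 with single arrays left out. Between 2 and 10 members had an unadjusted p under 0.05, all lower: 2 over probe sets with a mean of at least 6, 10 with the replicate number as a block, and 2 to 8 with single arrays left out. The replicate numbers do not pair the arrays, and no member passed the adjusted threshold with the block. That filter left 12848 probe sets to test, of which 481 had an unadjusted p under 0.05. Of all 31042 probe sets, 1220 had one in the main fit, 2047 with array weights and 785 with the replicate block. It was 2025 without the near-identical pair and 538 to 2885 with single arrays left out. The adjusted count was 3 without the near-identical pair and 0 to 11 with single arrays left out; none of these were members, whose smallest adjusted p was 0.588 and 0.355 (without vehicle 4).

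Of 536 member values under the alternatives, 14 turned sign, and 26 of 32 members kept theirs throughout. Irf9 was 0.01 with median centring. Ifi44l was −0.02 and Rtp4 −0.05 with array weights. Without the near-identical pair Ifi44l was −0.02 and Ifnb1 −0.01. With single arrays left out, the range was −0.06 to 0.18 for Ifi44l, −0.21 to 0.26 for Rtp4, −0.19 to 0.07 for Eif2ak2, −0.09 to 0.00055 for Irf9, −0.00012 to 1.25 for Irf1, −0.19 to 0.01 for Ube2l6, −0.03 to 0.17 for Ifnar1, −0.04 to 0.19 for Ifnb1 and −0.15 to 0.60 for Socs3. The Gapdh ratio difference ran from −0.0513 to 0.0389. The cause of these changes was not tested. Dim probe sets such as Oas1b, Ifng and Ifnb1 limit what can be read.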
